A study of Mus musculus with 20 samples.

Results

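The dopamine receptor and dopamine synthesis genes are 8 of the 25239 genes in the count table of a bulk RNA-seq study of the mouse preoptic area (POA). They are the 5 dopamine receptors Drd1, Drd2, Drd3, Drd4 and Drd5, the synthesis enzymes Th and Ddc, and the dopamine transporter Slc6a3. The members were taken by gene symbol. The family itself was chosen by the fold change of Drd3, which had the largest drop of a list of neuromuscular genes when dnFGFR mice housed with the opposite sex were compared with dnFGFR mice housed with the same sex. That comparison is therefore described below without a test, whereas the comparison of housings in control mice and the comparison of genotypes over both housings were tested.

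POA tissue came from 20 male mice at PND320, with 5 mice in each of 4 groups. Every mouse was paired at PND20 with a partner and lived with that partner until tissue was taken. Control SS and dnFGFR SS mice lived with another male (same sex, SS), whereas control OS and dnFGFR OS mice lived with a female (opposite sex, OS), bred freely and raised pups, so that OS housing joins cohabitation, mating and fatherhood. In dnFGFR mice, homozygous for the transgene, a rat GnRH promoter directs a form of fibroblast growth factor receptor 1 that cannot signal, because its kinase is missing, to GnRH neurons, which are a small population of cells. Control mice shared the genetic background and were bred from carriers of a single copy. Total counts per mouse ran from 32353600 to 39871400. Levels are given in CPM, counts scaled to the size of each library, and 1 CPM corresponded to between 32.7 and 40.3 reads. Tissue of every control mouse was taken in June or July. That of the dnFGFR mice was taken in May, with the exception of a November mouse (dnFGFR SS replicate 4), and the date therefore cannot be told apart from the genotype. The dnFGFR OS replicate 5 library stood apart with 18416 genes detected, against 19101 to 19659 in the other 19 mice, and dnFGFR OS replicate 3 had the lowest level of striatal neuron markers, and several values are also given without one of these mice.

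Dopamine is made from tyrosine by tyrosine hydroxylase (Th), which forms L-DOPA, and by aromatic L-amino acid decarboxylase (Ddc), which turns L-DOPA into dopamine. Released dopamine is taken back into dopamine neurons by the transporter Slc6a3. D1-like receptors (Drd1, Drd5) couple to stimulatory G proteins and raise cyclic AMP, whereas D2-like receptors (Drd2, Drd3, Drd4) couple to inhibitory G proteins and lower it. In the striatum, which lies beside and above the preoptic area, Drd1 and Drd2 mark the direct and the indirect pathway medium spiny neurons, respectively. Drd3 is known from the ventral striatum and the islands of Calleja. In the preoptic area dopamine is known to promote male sexual behaviour.

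The sequences just upstream of the start sites of Drd2, Drd1 and Drd3 are shown because the results turn on these receptors, and because Drd2 followed the summed level of striatal markers most closely of the 3 and Drd3 least. Each window holds the 150 bases before a RefSeq start (GRCm38.p6), 5' to 3' on the gene's strand, with GC boxes (GGGCGG, on either strand) in capitals. Windows were also searched on both strands for a cyclic AMP response element (TGACGTCA) and a TATA sequence (TATAAA). The windows lie at chr9:49340253-49340402 (plus strand) for Drd2, at chr13:54055659-54055808 (minus strand) for Drd1 and at chr16:43762071-43762220 (plus strand) for Drd3, where the start lies inside the annotated gene, which begins at base 43754015. The Drd2 gene is annotated from base 49340360, so the last bases of its window also lie inside the gene.
Drd2: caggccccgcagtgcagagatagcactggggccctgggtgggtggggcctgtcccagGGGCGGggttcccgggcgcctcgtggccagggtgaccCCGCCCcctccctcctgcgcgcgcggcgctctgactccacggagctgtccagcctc
Drd1: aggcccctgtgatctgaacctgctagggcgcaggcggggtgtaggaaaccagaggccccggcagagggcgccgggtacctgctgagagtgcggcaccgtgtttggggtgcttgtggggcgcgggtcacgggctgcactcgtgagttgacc
Drd3: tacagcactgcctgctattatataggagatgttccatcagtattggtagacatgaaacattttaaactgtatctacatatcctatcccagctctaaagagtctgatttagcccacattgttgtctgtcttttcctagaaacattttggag
The Drd2 window was rich in GC (76%), with 12 CpG dinucleotides and 2 GC boxes. The Drd1 window had a GC content of 68% with 11 CpGs and none of the 3 motifs, although a window at a second RefSeq start of Drd1 held 1 GC box. The Drd3 window had a GC content of 37.3%, no CpG and none of the 3 motifs, and only 7.34% of 32851 RefSeq windows of this length had a lower GC content. A GC box was present in 28.6% of those windows, a TATA sequence in 7.57% and a cyclic AMP response element in 1.36%. Of the other members, Th held 1 cyclic AMP response element, Slc6a3 and Drd4 held 3 GC boxes each, and a Ddc window held 1 TATA sequence. These matches describe the letters of the windows and not sites shown to be in use.

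Drd2 and Drd1 were by far the most abundant members in this tissue, and Drd4 and Slc6a3 were close to the limit of detection. Per kilobase of the longest GENCODE transcript, the mean level over 20 mice was 61.7 ± 8.37 CPM per kb (SD) for Drd2 and 44.4 ± 4.86 CPM per kb for Drd1. Mice overlapped between these top 2 genes. Ddc followed at 8.69 ± 1.21 CPM per kb and Th at 3.62 ± 0.597 CPM per kb. With this length the ranges of Drd1, Ddc and Th did not overlap. Drd5 (1.72 ± 0.256 CPM per kb) and Drd3 (1.70 ± 0.667 CPM per kb) overlapped and had nearly the same mean. Drd4 (0.0848 ± 0.0418 CPM per kb) and Slc6a3 (0.0748 ± 0.0578 CPM per kb) came last and overlapped as well. Drd2 was thus 36.3-fold and Drd1 26.1-fold above Drd3 per length. With the union of all exons as the length, Ddc stood at 3.93 CPM per kb and Th at 2.99 CPM per kb. Their order was the same, but mice then overlapped between Ddc and Th. On that length Drd4 at 0.0702 CPM per kb came below Slc6a3.

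**Figure D1:**
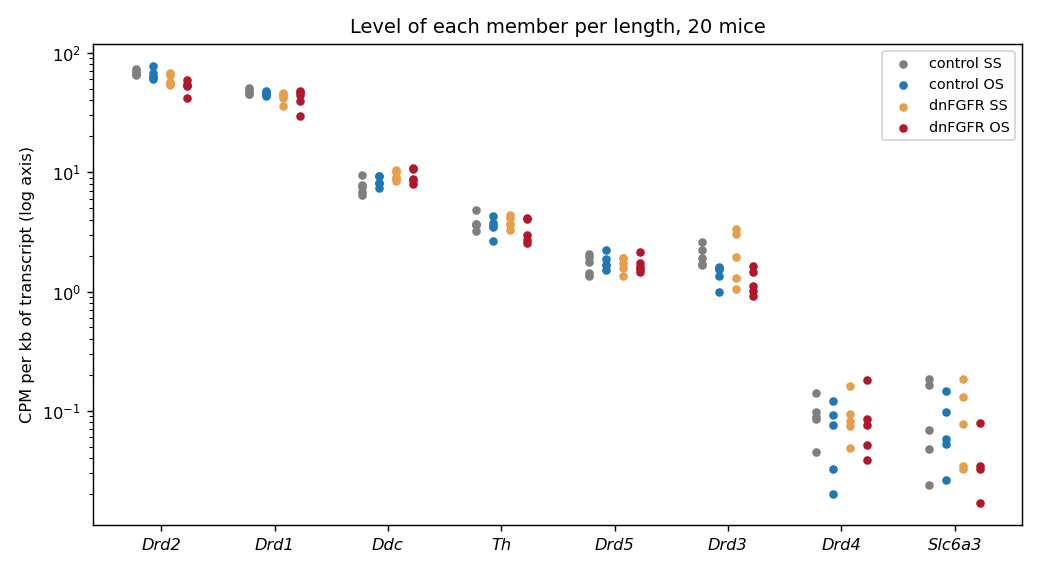
Level of each of the 8 genes in CPM per kb of the longest GENCODE transcript (log axis), with 1 point per mouse and 4 colours for the groups. The dnFGFR OS mouse with 0 Slc6a3 reads has no point. The genes fall into an upper pair (Drd2, Drd1), a middle set from Ddc to Drd3 and a lower pair (Drd4, Slc6a3).

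The tissue label was checked against marker genes. Markers of striatal medium spiny neurons were abundant, with a mean of 939 CPM for their most abundant gene, Adcy5 (the main adenylyl cyclase of these cells). Markers of preoptic and hypothalamic neurons were present but lower, with Pgr at a mean of 33.0 CPM, Esr1 at 5.67 CPM and Gnrh1 at 1.68 CPM. Genes that define midbrain dopamine neurons were close to 0: Foxa2 had no read in 19 of 20 mice, Foxa1 in 16 and Pitx3 in 9, and En1 reached at most 0.483 CPM. The midbrain list summed to between 50.9 and 79.7 CPM per mouse, most of it from Slc10a4 (mean 27.1 CPM), Ret (17.8 CPM) and Nr4a2 (13.9 CPM), which other neurons also express. In bulk tissue, fewer cells of a type and less RNA per cell cannot be told apart, for each of the results that follow.

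The tested comparison of genotypes over both housings showed lower Drd2 in dnFGFR mice. In control SS mice Drd2 stood at 186, 168, 167, 181 and 168 CPM, and in control OS mice at 172, 198, 161, 160.1 and 154 CPM. In dnFGFR SS mice it stood at 136.9, 172, 145, 142 and 166 CPM, and in dnFGFR OS mice at 136.7, 136.5, 107, 151 and 135 CPM. Of the 10 dnFGFR mice, 8 were below every control mouse, and the exceptions were dnFGFR SS replicates 2 and 5. Drd2 fell by 16.9%, with a log2 fold change of -0.27 (SE 0.0600, edgeR quasi-likelihood test, p = 0.000200, Benjamini-Hochberg adjusted p = 0.0324 over 17445 genes, n = 10 per genotype). Drd2 was the only member called of the 7 that passed the filter on low counts, against 1.3% of all genes called in this comparison and 0.762% called lower, and it ranked at position 107 by p. Without dnFGFR OS replicate 3, the mouse with the lowest Drd2, the log2 fold change was -0.23 (SE 0.0531, adjusted p = 0.0468), and without dnFGFR OS replicate 5 it was -0.27 (adjusted p = 0.0328).

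Within each housing, the change of Drd2 against control mice was -12.5% in SS mice (log2 fold change -0.19, SE 0.0848) and -21.2% in OS mice (log2 fold change -0.34, SE 0.0850). In SS mice the 2 genotypes overlapped, with 4 of 5 dnFGFR mice below all control mice. In OS mice they did not overlap, as for 0.711% of all genes in this direction. These values share dnFGFR mice with the comparison that led to the choice of the family and are given as descriptions only.

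The other members showed no call by genotype. Drd1 stood at 183, 178, 168, 162 and 162 CPM in control SS mice and at 155, 171, 159, 169 and 163 CPM in control OS mice. It stood at 155, 161, 128, 165 and 148 CPM in dnFGFR SS mice and at 158, 169, 107, 141 and 169.9 CPM in dnFGFR OS mice. Of the dnFGFR mice, 5 were below all control mice, and dnFGFR OS replicate 3 was again the lowest. The log2 fold change of Drd1 was -0.15 (SE 0.0670, edgeR adjusted p = 0.376), and -0.10 (adjusted p = 0.440) without that mouse. Ddc had the higher mean in dnFGFR mice: it stood at 13.1, 13.9, 15.7, 19.1 and 15.1 CPM in control SS mice, and at 16.4, 14.8, 16.4, 18.9 and 18.7 CPM in control OS mice. In dnFGFR SS mice it stood at 17.2, 20.1, 21.0, 17.8 and 18.4 CPM, and in dnFGFR OS mice at 21.9, 17.6, 21.3, 17.4 and 15.9 CPM. Of the 10 dnFGFR mice, 4 were above all control mice, and the rest lay within the control range. The log2 fold change of Ddc was 0.22 (SE 0.0759, edgeR unadjusted p = 0.00840, adjusted p = 0.233). Th (log2 fold change -0.05, SE 0.106), Drd5 (-0.04, SE 0.104) and Drd3 (-0.06, SE 0.186) had adjusted p of 0.917, 0.935 and 0.943 in the same edgeR fit. Slc6a3 had a log2 fold change of -0.65 with an SE of 0.465 (edgeR adjusted p = 0.657), on 0 to 25 reads per mouse. Drd4 did not pass the filter and averaged 0.225 ± 0.107 CPM (SD) in control and 0.250 ± 0.130 CPM in dnFGFR mice (exact two-sided permutation test within housing, 63504 regroupings, p = 0.648).

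**Figure D2:**
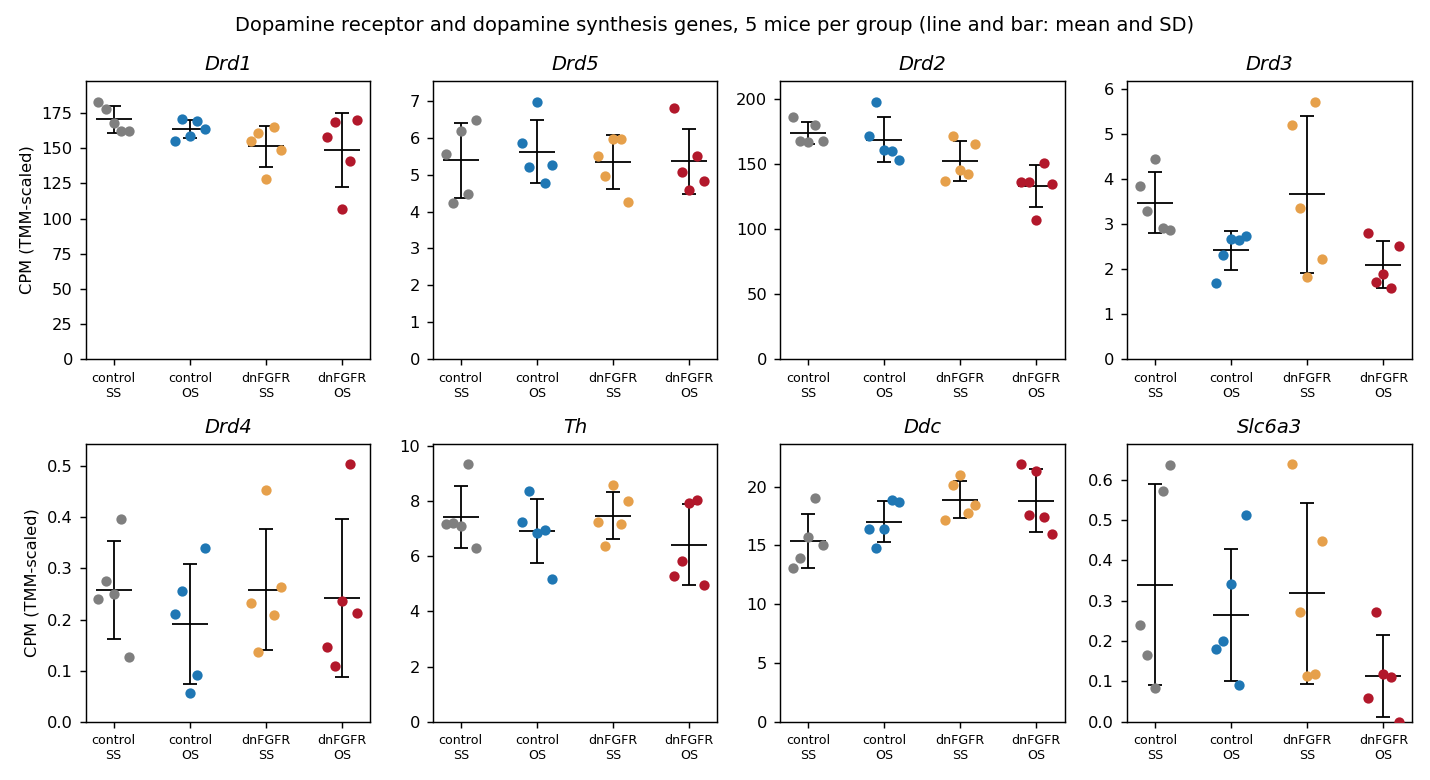
TMM-scaled CPM of each of the 8 genes (y axis, from 0) in the 4 groups, with 1 point per mouse and a line and bar for mean and SD (n = 5). Drd2 was lowest in dnFGFR OS mice (107 to 151 CPM), and Drd3 was spread most widely in dnFGFR SS mice (1.81 to 5.71 CPM).

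The summed level of striatal markers followed that of Drd2 across mice, but single markers varied in this: Gpr149, Rgs14 and Cnr1 had an r with Drd2 of 0.018, 0.268 and 0.319 over the 20 mice. The 19 markers of medium spiny neurons, listed without the members, summed to 7075 to 9015 CPM in control SS mice (median 7351), 6745 to 7755 CPM in control OS mice (median 6884), 6301 to 7595 CPM in dnFGFR SS mice (median 6672) and 4652 to 6377 CPM in dnFGFR OS mice (median 6225). Of the 19, 18 had a log2 fold change below 0 by genotype (median -0.19, against -0.00040 over all genes tested), and 4 were called lower and none higher. The other 15 were not called, among them Cnr1 at -0.0027 and Rgs14 at -0.011. The called genes were Scn4b, a sodium channel beta subunit (793.9 ± 123 CPM in control and 563 ± 90.5 CPM in dnFGFR mice, log2 fold change -0.50, SE 0.0855, edgeR adjusted p = 0.00406), Rgs9, which speeds the shut-off of G protein signalling (-0.27, adjusted p = 0.0303), Syndig1l (-0.31, adjusted p = 0.05004) and Adcy5 (-0.21, adjusted p = 0.0686). Without dnFGFR OS replicate 3, an alternative chosen after seeing the data, 15 of the 19 were below 0 (median -0.15) and 2 were called, Scn4b and Rgs9, while Syndig1l and Adcy5 had an adjusted p of 0.110 each. Without dnFGFR OS replicate 5, 17 were below 0 and 5 were called lower. Over all genes, 1.3% of 17445 were called by genotype in the fit of all mice, and 0.762% were called lower. Leaving out 1 mouse at a time gave 157 to 337 genes called, against 226 in all mice. In the fit of all mice the striatal marker with the smallest p above 0 was Gpr149 (0.06, adjusted p = 0.905). Drd2 set against this sum was nearly flat across groups: per 1000 CPM of striatal markers it stood at 22.7 ± 1.19 CPM (SD, n = 5) in control SS, 23.8 ± 1.07 CPM in control OS, 22.2 ± 0.617 CPM in dnFGFR SS and 22.5 ± 1.17 CPM in dnFGFR OS mice. On the same scale and in the same order of groups, Drd1 stood at 22.2 ± 1.72, 23.1 ± 1.59, 22.1 ± 2.35 and 24.9 ± 2.12 CPM. Drd3 stood at 0.452 ± 0.0908, 0.342 ± 0.0759, 0.541 ± 0.280 and 0.356 ± 0.0879 CPM, with the lower mean under OS housing in both genotypes. The part that the amount of striatal tissue in each block had in the lower Drd2 was not tested.

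Over the 20 mice, log2 CPM of Drd2 followed the log2 of the striatal sum with Pearson's r = 0.937 and Spearman's rho = 0.950, and r was 0.930 without the 2 mice farthest from the median sum and 0.891 after the group means were subtracted. For Drd1 the r was 0.739 and fell to 0.310 without those 2 mice, while it was 0.685 after the group means were subtracted. For Drd3 the r was 0.319, and it was 0.117 without those 2 mice and -0.05 after the group means were subtracted. Drd2 also had an r of 0.907 with the receptor signalling sum, 0.654 with basal forebrain cholinergic markers (0.298 after the group means were subtracted), 0.566 with amine breakdown (0.502), 0.481 with dopamine supply (0.114), 0.309 with the midbrain list (0.134) and -0.53 with cortical markers (-0.31). Its r with preoptic and with choroid plexus markers was 0.050 and 0.054. Drd1 had an r of 0.719 with receptor signalling, 0.687 after the group means were subtracted and 0.290 without the 2 farthest mice. Its r was 0.614 with cholinergic markers (0.437 after subtraction), 0.588 with the midbrain list (0.533) and -0.49 with preoptic markers (-0.605). It was -0.33 with choroid plexus markers (-0.48), -0.22 with cortical markers (0.051), -0.10 with amine breakdown (-0.32) and -0.04 with dopamine supply (-0.51). With the summed levels of other lists the r of Drd3 was 0.606 for basal forebrain cholinergic markers (0.601 after the group means were subtracted), 0.604 for the midbrain list (0.622) and 0.396 for receptor signalling (0.034). It was -0.46 for choroid plexus markers (-0.45), -0.39 for amine breakdown (-0.65), -0.33 for dopamine supply (-0.64), -0.29 for preoptic markers (-0.34) and -0.08 for cortical markers (0.054). Without the 2 mice farthest from the median of each sum, the midbrain value was 0.371 and the preoptic value -0.72. These values describe 20 mice that share libraries, depth and dissection with the markers.

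**Figure D3:**
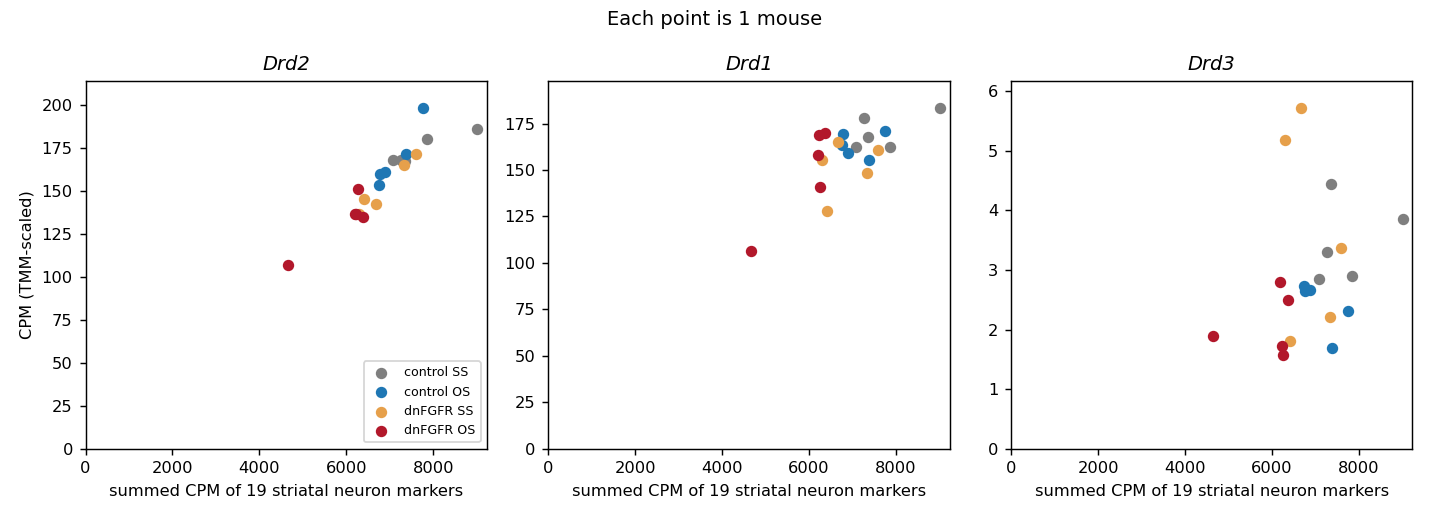
CPM of Drd2, Drd1 and Drd3 (y axes, from 0) against the summed CPM of 19 striatal neuron markers (x axis), with 1 point per mouse and 4 colours for the groups. Drd2 lies along a line through all groups (r = 0.937 on the log2 scale), whereas Drd3 is scattered (r = 0.319).

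The genes whose levels were most like those of each receptor differed. By the Pearson correlation of log2 CPM over 20 mice, the genes nearest to Drd2 included Syndig1l (r = 0.923), Gng7 (0.921), Rasd2 (0.913) and Adora2a (0.912). Adora2a, an adenosine receptor gene, is a known marker of the indirect pathway, and its r with Drd1 was 0.784. The 5 nearest to Drd1 were Arpp21 (0.944), Rarb (0.940), Cdc42ep3 (0.889), Pou3f4 (0.878) and Plppr1 (0.866). Among the 19 striatal markers, the neuropeptide genes of the direct pathway, Pdyn and Tac1, had an r of 0.816 and 0.786 with Drd1 and of 0.384 and 0.404 with Drd2. Syndig1l and Rasd2 had an r of 0.923 and 0.913 with Drd2 and of 0.429 and 0.478 with Drd1. Penk, the neuropeptide gene of the indirect pathway, had an r of 0.768 with Drd2 and of 0.612 with Drd1. Drd1 and Drd2 themselves had an r of 0.634.

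**Figure D4:**
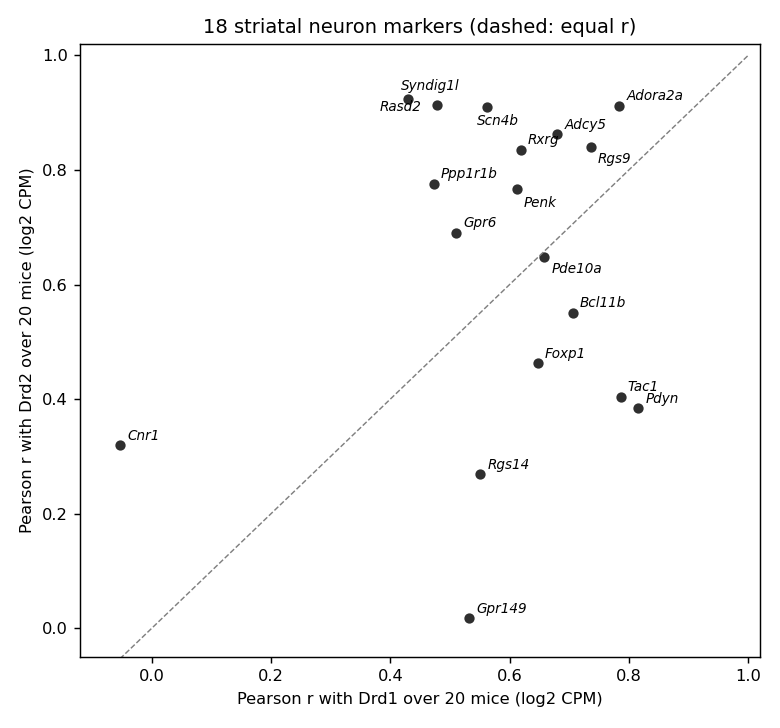
Pearson correlation over 20 mice of 18 of the 19 striatal markers with Drd1 (x axis) and with Drd2 (y axis), from log2 CPM, with 1 point per gene and a dashed line at equal r. Pdyn and Tac1 lie on the Drd1 side, and Syndig1l, Rasd2 and Scn4b on the Drd2 side.

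For Drd3 the nearest genes were Zfp142 (r = 0.801), Ntn1 (0.778), Zmym3 (0.778), Nisch (0.775) and Ptpro (0.767), none of them in the striatal list. After the group means were subtracted they were Smarca1 (0.884), Hs3st5 (0.863), Chn2 (0.861), Rgl1 (0.818) and Ehbp1 (0.815), so the 2 lists shared no gene. Th was nearest to Col18a1 (0.840), Ceacam2 (0.825), Lbh (0.814), BC021767 (0.808) and Rasa4 (0.806). Ddc was nearest to Dnah6 (0.903), which encodes an axonemal dynein of motile cilia, followed by Tmem8 (0.789), Etnppl (0.783), Cpa4 (0.772) and Fzd1 (0.760), and after the group means were subtracted a second dynein gene, Dnah7a (0.861), came next to Dnah6 (0.914). The nearest gene to Drd5 was Adgrg3 at an r of 0.652, and the nearest to Slc6a3 was Mir760 at 0.822, on at most 25 Slc6a3 reads per mouse.

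The tested comparison of housings in control mice gave no call among the members. OS housing was compared with SS housing in 10 control mice, and 0 of the 6 members that passed the filter were called with edgeR, against 0.124% of 17004 genes. At an unadjusted p under 0.05 there was 1 member, Drd3, against 7.20% of all genes tested, and DESeq2 called 0 members. Drd3 stood at 3.85, 3.30, 4.44, 2.91 and 2.85 CPM in control SS mice and at 1.69, 2.31, 2.67, 2.65 and 2.73 CPM in control OS mice. The lowest SS mouse was above the highest OS mouse, so the groups did not overlap. Groups did not overlap in this direction for 0.776% of the genes tested. The log2 fold change was -0.52 (SE 0.179), a change of -30.4% in OS mice (edgeR unadjusted p = 0.0108, adjusted p = 0.482, lower in 5 of 5 OS mice). Reads behind these values numbered 112 to 160 per SS mouse and 56 to 96 per OS mouse. In the same mice the 5 choroid plexus markers were all above 0 with OS housing (median log2 fold change 1.52, 2 at an unadjusted p under 0.05, 0 called by edgeR or DESeq2). Their summed level had a median of 128 CPM (35.2 to 1073) with SS and 1415 CPM (51.0 to 1944) with OS housing, and the groups overlapped. The 5 cholinergic markers were all below 0 (median -0.08), and the part of either in the Drd3 values was not tested. On the 2 dates that held both housings, with 2 SS and 5 OS mice and date as a block, the log2 fold change of Drd3 was -0.64 (SE 0.222, adjusted p = 1.00).

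Of the remaining members, none was called between housings in control mice. Drd2 had a log2 fold change of -0.04 (SE 0.0633), Drd1 of -0.06 (SE 0.0484), Drd5 of 0.06 (SE 0.147), Th of -0.11 (SE 0.136) and Ddc of 0.15 (SE 0.104), and their edgeR adjusted p ran from 0.815 to 0.958. These values moved when single mice were left out. Ddc was at 0.24 (edgeR unadjusted p = 0.0220, adjusted p = 0.538) without SS replicate 4 and at 0.09 without SS replicate 1. Th was at -0.18 without OS replicate 2, -0.16 without SS replicate 5, -0.02 without OS replicate 5 and -0.0076 without SS replicate 4. Drd2 was at -0.10 without OS replicate 2, and between -0.03 and -0.01 without SS replicate 1 or 4 or OS replicate 3, 4 or 5. Drd1 was at -0.04 without SS replicate 1, and Drd5 ran from -0.03 without OS replicate 3 to 0.14 without SS replicate 5. Drd4 and Slc6a3 did not pass the filter. Drd4 averaged 0.258 ± 0.0964 CPM (SD, n = 5) in SS mice, against 0.191 ± 0.117 CPM under OS housing (exact two-sided permutation test, p = 0.373). For Slc6a3 the mean was 0.339 ± 0.249 CPM under SS housing and 0.265 ± 0.164 CPM under OS housing (n = 5, exact permutation p = 0.587). Th stood at 7.19, 7.23, 7.11, 9.34 and 6.32 CPM in SS and at 7.25, 8.39, 6.84, 6.95 and 5.17 CPM in OS control mice, with the groups overlapping.

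In dnFGFR mice, the comparison from which the family was chosen, Drd3 had the lowest log2 fold change of the 6 members that passed the filter. It stood at 5.19, 3.36, 1.81, 5.71 and 2.21 CPM in dnFGFR SS mice and at 2.80, 1.72, 1.90, 1.57 and 2.50 CPM in dnFGFR OS mice. All 5 OS mice were below the SS median of 3.36 CPM, but SS replicates 3 and 5 lay within the OS range. The log2 fold change was -0.80 (SE 0.312), with no test made of the members. Over all genes, edgeR called 0% of 16944 in this comparison (1138 at an unadjusted p under 0.05), and DESeq2 called 5. Without 1 mouse it ran from -0.97 to -0.58: it was -0.58 without SS replicate 4, the November mouse, and -0.64 without SS replicate 1, but -0.97 without SS replicate 3, -0.94 without SS replicate 5, -0.92 without OS replicate 1 and -0.87 without OS replicate 5. SS mice averaged 3.47 ± 0.675 CPM (SD) in control and 3.66 ± 1.74 CPM in dnFGFR mice, and OS mice 2.41 ± 0.433 CPM and 2.10 ± 0.531 CPM. The housing difference in dnFGFR mice minus that in control mice was -0.28 on the log2 scale, with an SE of 0.372. In dnFGFR mice the 5 choroid plexus markers were all above 0 with OS housing (median log2 fold change 0.41). Their summed level varied widely and overlapped between housings, at 37.3 to 1583 CPM in SS and 37.1 to 2167 CPM in OS mice. Of the 5 cholinergic markers 4 were below 0 (median -0.11), as were 3 of the 5 midbrain genes tested (median -0.33). The part of these in the Drd3 values was not tested.

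Drd2 in dnFGFR mice had a log2 fold change of -0.19 (SE 0.0964) by housing, with 4 of 5 OS mice below all SS mice. In the same mice 18 of the 19 striatal markers were below 0 (median -0.17). The Drd2 value was -0.12 without OS replicate 3 and -0.11 after removal of GC content and length trends. Th had -0.22 (SE 0.158), at 7.25, 6.37, 8.61, 7.17 and 8.01 CPM in SS and 5.29, 5.83, 7.95, 8.03 and 4.98 CPM in OS mice, of which 3 were below all SS mice. It was -0.31 without OS replicate 3, -0.14 without OS replicate 5 and -0.39 with date as a block over the 6 mice whose date was shared by SS and OS mice. Drd1 (-0.03, SE 0.119), Drd5 (0.01, SE 0.148) and Ddc (-0.01, SE 0.107) lay near 0, and Drd1 was at 0.07 without OS replicate 3 and at -0.08 without OS replicate 5. Slc6a3, which did not pass, had 4 to 22 reads (mean 0.318 CPM) in dnFGFR SS and 0 to 10 reads (mean 0.112 CPM) in dnFGFR OS mice, and Drd4 5 to 16 and 4 to 18. The 0 reads in dnFGFR OS replicate 5 allow up to 3 counts, so its Slc6a3 level is a limit and not an absence.

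**Figure D5:**
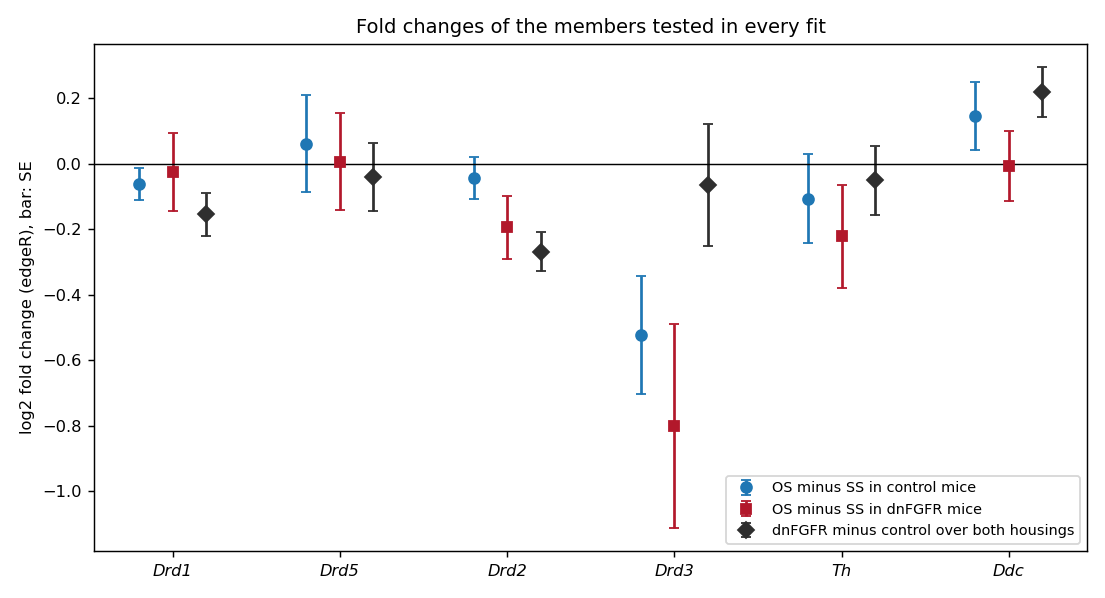
log2 fold change from edgeR (points) with its SE (bars) for the 6 members that passed the filter in each of the 3 fits, for OS against SS in control mice (circles), OS against SS in dnFGFR mice (squares, description only) and dnFGFR against control over both housings (diamonds). Drd3 lies at -0.52 and -0.80 by housing and at -0.06 by genotype, and Drd2 lies at -0.27 by genotype.

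The other genes of dopamine handling were followed through lists. The list of dopamine supply covers the tetrahydrobiopterin cofactor of Th and vesicular loading. By genotype, 1 of its 8 genes was called, against 1.3% of all genes tested. This was Qdpr, the dihydropteridine reductase that recycles the cofactor, at 207 ± 17.8 CPM in control and 172 ± 20.2 CPM in dnFGFR mice (log2 fold change -0.27, SE 0.0659, edgeR adjusted p = 0.05004), and it was the most abundant gene of the list. Pcbd1 had the smallest p above 0 (0.10, adjusted p = 0.859). The vesicular monoamine transporter Slc18a2 averaged 10.3 CPM and Gch1, the first enzyme of cofactor synthesis, 1.72 CPM. In control mice, Gch1 had the smallest p above 0 by housing (0.40, adjusted p = 0.739) and Gchfr below 0 (-0.08, adjusted p = 0.984).

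Of the 12 genes for amine breakdown and other monoamines, led in level by Aldh2 at a mean of 76.2 CPM, 9 were tested and 0 were called by genotype with edgeR or DESeq2, with 1 at an unadjusted p under 0.05, against 11.2% of all genes tested. This was Slc29a4, a plasma membrane monoamine transporter (log2 fold change -0.36, adjusted p = 0.357). By housing in control mice the smallest p belonged to Slc29a4 above 0 (0.30, adjusted p = 0.799) and to Maoa, monoamine oxidase A, below 0 (-0.09, adjusted p = 0.811).

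Among 23 genes of receptor signalling, Gnas was the most abundant (mean 1288 CPM). By genotype, 3 of the 23 were called lower (Rgs9, Gng7 and Adcy5) and none higher, against 0.762% of all genes called lower. Gng7, a G protein gamma subunit that works with the striatal stimulatory G protein, stood at 794 ± 37.3 CPM in control and 675 ± 79.5 CPM in dnFGFR mice (-0.24, SE 0.0529, edgeR adjusted p = 0.0324). The median over the 23 was -0.03. Rgs9, Adcy5, Ppp1r1b and Pde10a are in both this list and the striatal list. Ppp1r1b (DARPP-32, a phosphatase inhibitor downstream of D1 receptors) had a log2 fold change of -0.23 (adjusted p = 0.371), and Grk3, a receptor kinase, had the smallest p above 0 (0.15, adjusted p = 0.213). By housing in control mice, Rgs9 had the smallest p below 0 (485 ± 16.4 CPM with SS, 428 ± 19.4 CPM with OS housing, -0.18, SE 0.0469, adjusted p = 0.252) and Arrb2 above 0 (0.10, adjusted p = 0.821). In those mice 18 of 19 striatal markers were also below 0 (median -0.11), with Gpr6 (0.01, adjusted p = 0.989) as the exception.

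Over all 9 lists, 0 of 87 genes tested were called by housing in control mice with edgeR, against 0.124% of all genes tested, and 12 had an unadjusted p under 0.05, against 7.20% of all genes. DESeq2 called 2 of the list genes, and 157 of all 21630 genes it tested. By genotype edgeR called 8 of 90, all of them lower, against 1.3% of all genes called and 0.762% called lower. DESeq2 called 12 of the list genes by genotype, and 436 of all 22187.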

How the data were processed

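RNA from the POA of 20 male mice was sequenced as paired-end libraries. Reads were aligned to GRCm38 (HISAT2) by Novogene, which also sequenced the libraries, and Rsubread (2.0.1) gave counts on RefSeq genes. The authors deposited whole-number counts without normalization for 25239 genes, of which 22187 had reads here. They tested with DESeq2 (1.36.0), each genotype apart, after removing outlier samples found by robust principal component analysis. In the main fits here all 20 mice were kept, so the numbers of genes called are not directly comparable with theirs. Options for strand, multiply mapped and overlapping reads are not given in the sources used here, so reads in Drd2, Drd5 and Ddc that overlap RNA genes in RefSeq cannot be assigned with certainty. 20 other columns of the table were not used. Depth was 32353600 to 39871400 counts per mouse, and the limit given for a count of 0 covers counting error only.

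Counts were scaled by TMM and tested with edgeR (4.0.16, R 4.3.3) after filterByExpr, with calls at a Benjamini-Hochberg adjusted p under 0.1 over all genes. Housing was fitted in 10 control mice, and genotype as the mean of the dnFGFR groups minus that of the control groups in 20 mice. Members below the filter were tested by an exact permutation of mean CPM. CPM per kb used the longest GENCODE transcript of each gene, or the union of its GENCODE exons where stated. Correlations used log2 CPM with a prior count of 2. The fits were tested on simulated data. No pair of libraries in a group agreed within sampling noise (chi-square per degree of freedom at least 9.51).

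The members and lists were chosen with earlier results of these data known. Named are the 8 members, the list genes of smallest p above and below 0, those called and the most abundant of each list, and the 5 genes most alike to each member, except for a few genes that are not reported here. The lists were dopamine supply, amine breakdown and other monoamine genes, receptor signalling, and markers of midbrain dopamine neurons, striatal medium spiny neurons, preoptic neurons, cortical excitatory neurons, basal forebrain cholinergic neurons and choroid plexus. Alternatives were DESeq2 (1.42.0), other size factors, other filters, GC and length correction, replicate and date blocks, and leaving out each mouse. Dates were taken from the study's sample table.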

Additional observations from a re-analysis of the deposited data

Results flagged for a closer look

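Each of 68 groups of 5 values (the 8 members and 9 list sums in 4 groups) was checked for 1 mouse far from the other 4, and chance gives such a mouse in about 1 in 20 groups. No member had one. In dnFGFR OS replicate 3 the summed CPM of striatal markers was 4652 (the other 4 mice 6196 to 6377), that of receptor signalling genes 8640 (the others 9707 to 9978) and that of choroid plexus markers 2167 (the others 37.1 to 420.4). This was also the mouse with the lowest Drd1 and Drd2. In control OS replicate 2 the dopamine supply sum was 307 CPM (the others 257 to 269.8) and the sum of amine breakdown and other monoamine genes 334 CPM (the others 267 to 279). In control OS replicate 5 the preoptic sum was 128 CPM (the others 178 to 195).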

How the results depend on the processing

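Across all alternatives, Drd2 kept its lower level in dnFGFR mice and its call in each, with log2 fold changes of -0.29 to -0.23 and adjusted p of 0.00364 to 0.0711 (lowest with DESeq2, highest without control OS replicate 2). With the replicate number as a block it was -0.27 (adjusted p = 0.0345), but the numbers do not pair the mice: of 20 same-number pairs 4 had an r over 0.1 (range -0.23 to 0.26) and 3 correlated best with their own number. With the block 23 genes were called by housing and 203 by genotype. Leaving out the November mouse and dnFGFR OS replicate 5 together, which was chosen after seeing the data, gave Drd2 a log2 fold change of -0.26 (adjusted p = 0.0590) and 295 genes called. Drd3 in control mice stayed between -0.64 and -0.42, with adjusted p of 0.283 to 1.00, so it was never called. Members called numbered 0 by housing and 1 by genotype in each alternative. Genes called by housing in control mice numbered 21, and 157 with DESeq2, 32 with at least 10 counts in every mouse, 6 at an adjusted p under 0.05, 1 within dates of both housings, 0 with all 4 groups in 1 fit and 0 to 32 without 1 mouse (0 without control SS replicate 4, and a move by over 1.5 times also without control SS replicates 1, 2 or 5 or control OS replicates 1, 2, 4 or 5). By genotype they numbered 226, with 436 under DESeq2 and 157 to 337 without 1 mouse. Signs near 0 turned without 1 mouse: Drd5 by housing (-0.030 to 0.14) at -0.015 and -0.030 without control SS replicate 2 or control OS replicate 3, and by genotype Th (-0.093 to 0.00027) at 0.00027 without control SS replicate 4, Drd5 (-0.089 to 0.0065) at 0.0065 without control OS replicate 3, and Drd3 (-0.17 to 0.023) at 0.023 and 0.0059 without dnFGFR SS replicate 3 or 5. The causes were not tested. Housing values in dnFGFR mice also turned in sign for Drd1 (-0.084 to 0.073), Drd5 (-0.089 to 0.065) and Ddc (-0.061 to 0.055). Drd4 rests on 2 to 18 reads per mouse and Slc6a3 on 0 to 25.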

Other observations

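The 5 markers of cortical excitatory neurons were all above 0 by genotype (median log2 fold change 0.52), with 4 at an unadjusted p under 0.05 (against 11.2% of all genes tested) and 0 called by edgeR or DESeq2, and Slc17a7, the vesicular glutamate transporter of cortical cells and the most abundant of them (mean 344 CPM), had the smallest p (0.55, SE 0.207, adjusted p = 0.279). Their sums ran from 154 to 600.0 CPM in control and from 305 to 803 CPM in dnFGFR mice. The 5 markers of basal forebrain cholinergic neurons were all below 0 (median -0.21), with 0 called by edgeR, 4 at an unadjusted p under 0.05 (against the same 11.2%) and 1 called by DESeq2, and Slc18a3, the vesicular acetylcholine transporter, had the smallest p (-0.39, SE 0.115, adjusted p = 0.142), with Slc5a7 the most abundant (mean 43.1 CPM). The part of these cell types in the levels of the members was not tested.

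Of the preoptic list, 1 of 14 was called by genotype, against 1.3% of all genes tested. This was Gnrh1, which the transgene's target cells make, at 2.01 ± 0.391 CPM in control and 1.34 ± 0.308 CPM in dnFGFR mice (log2 fold change -0.58, SE 0.152, edgeR adjusted p = 0.0777). Of the midbrain list, 1 of 6 tested was called, against the same 1.3%. The called gene was En2, at 1.81 ± 0.512 CPM in control and 1.16 ± 0.304 CPM in dnFGFR mice (-0.63, SE 0.141, edgeR adjusted p = 0.0324), while Nr4a2 had the smallest p above 0 (0.47, adjusted p = 0.483). By housing in control mice, En2 (-0.70, adjusted p = 0.290), Lmx1a (1.96, adjusted p = 0.443), Prlr (0.75, adjusted p = 0.530), Avp (-0.28, adjusted p = 0.968), Chat (-0.20, adjusted p = 0.526) and Clic6 (0.53, adjusted p = 0.376) had the smallest p of their lists in their direction. Choroid plexus markers, led by Ttr (0.208 to 1992 CPM), summed to 35.2 to 2167 CPM per mouse and had 0 called by genotype with edgeR or DESeq2 and 0 at an unadjusted p under 0.05, with Kcnj13 at the smallest p (-0.50, adjusted p = 0.855).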
